A study of Arabidopsis thaliana with 12 samples.

Results

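The mitochondrial genome of Arabidopsis thaliana is described here through the 122 rows of the expression tables whose locus identifier begins with ATMG, out of 27416 rows in all. Membership depends on the identifier alone and used no measured value. Of the 122 loci, 38 carry a known protein product or an exon group of one, and 84 are open reading frames with no assigned function here. The plants were psp1 mutants, deficient in phosphoserine phosphatase, and wild type (WT), both of ecotype Columbia. Roots and the aerial part were collected separately at the end of the night, with 3 independent biological samples in each of 4 groups: roots labelled psp1, WT roots, aerial part labelled psp1 and WT aerial part. All plants grew on agar plates under 16 h of light and 8 h of dark, after stratification at 4 °C. Titles of the samples labelled psp1 carry the code HS where those of WT carry WT, and the titles do not explain this code. Neither the psp1 allele nor the age of the plants is given in the sources used here.

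Plant mitochondria keep a small set of genes for the respiratory chain, the ATP synthase, cytochrome c maturation and their own ribosomes, while most proteins of these machines come from the nucleus. Their transcripts are spliced, in some genes from separately transcribed pieces, and many cytidines are edited to uridine by nuclear-encoded proteins. In plant mitochondria a poly(A) tail marks RNA for breakdown, and mature messengers carry no stable tail. The RNA of this study was enriched for poly(A) before library preparation, so the counts describe what such a selection kept and not the whole mitochondrial RNA pool.

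The libraries held 4191768 to 5873935 counts in roots labelled psp1, 7445059 to 9590308 in WT roots, 3627193 to 5815906 in the aerial part labelled psp1 and 7302386 to 8958217 in the WT aerial part. The libraries labelled psp1 were therefore shallower than all WT libraries of the same organ. PSP1 (AT1G18640), the gene that names the mutant, stood at 114, 122 and 145 CPM (counts scaled to a fixed library total) in roots labelled psp1, against 167, 158 and 141 CPM in WT roots. In the aerial part labelled psp1 it stood at 401, 305 and 243 CPM, against 73.8, 64.3 and 50.4 CPM in WT, which goes against the label as a sign of lost transcript; the position of the lesion is not given in the sources used here. All directions below are those of libraries so labelled. Summed CPM of 10 leaf markers ranged over 245 to 425 in roots labelled psp1, 416 to 466 in WT roots, 20831 to 31053 in the aerial part labelled psp1 and 25620 to 34020 in the WT aerial part. Summed CPM of 8 root markers ranged over 3265 to 4405, 4926 to 5764, 280.4 to 302 and 288 to 333 in the same groups, so each organ carried its own markers.

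Several sequences show what the counting had to deal with. The coding sequence of nad3, a membrane subunit of complex I, is printed over its first 300 bases because an identical copy of the whole sits in the nucleus. The densest stretches of editing sites in ccmB (cytochrome c maturation), nad4 and nad7 (complex I) and atp1 (the alpha subunit of the ATP synthase) are printed beside the start of cox1 (cytochrome c oxidase), which has no annotated site. Capitals mark cytidines annotated as edited in the RefSeq mitochondrial genome of TAIR10.1, and each sequence runs 5′ to 3′ along the coding strand. All are genomic, so an edited transcript carries U, read as T, at each capital.
nad3: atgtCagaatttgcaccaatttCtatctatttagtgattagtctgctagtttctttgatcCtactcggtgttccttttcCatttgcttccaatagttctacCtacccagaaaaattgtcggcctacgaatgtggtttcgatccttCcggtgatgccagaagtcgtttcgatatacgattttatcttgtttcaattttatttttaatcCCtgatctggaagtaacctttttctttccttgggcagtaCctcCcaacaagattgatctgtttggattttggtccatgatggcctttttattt
ccmB: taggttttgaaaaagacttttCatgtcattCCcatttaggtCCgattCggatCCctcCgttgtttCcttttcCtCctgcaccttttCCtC
nad4: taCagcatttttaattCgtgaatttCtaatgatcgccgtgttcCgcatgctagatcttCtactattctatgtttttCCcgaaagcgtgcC
nad7: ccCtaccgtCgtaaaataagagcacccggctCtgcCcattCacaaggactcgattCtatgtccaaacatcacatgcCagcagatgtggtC
atp1: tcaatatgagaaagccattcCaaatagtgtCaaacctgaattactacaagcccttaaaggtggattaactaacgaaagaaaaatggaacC
cox1: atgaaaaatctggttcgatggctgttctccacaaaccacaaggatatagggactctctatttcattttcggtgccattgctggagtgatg
They lie at MT:288044-288343 on the plus strand (nad3) and on the minus strand at MT:18239-18328 (ccmB), MT:215114-215203 (nad4), MT:239298-239387 (nad7), MT:67138-67227 (atp1) and MT:116256-116345 (cox1) of the TAIR10.1 mitochondrial chromosome (MT). The stretches of 90 bases hold 15 sites in ccmB, 8 in nad4, 8 in nad7, 3 in atp1 and none in cox1.

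Nearly all members were rare. Over the 12 libraries the members summed to 20743 counts. Per library they held between 524 and 4892 counts. Members with a product took 85.1% of the counts, and atp1, nad7 and rps3, a protein of the small mitochondrial ribosomal subunit, took 38.4% by themselves. Of the 122 members, 4 had no count in any library, 46 had fewer than 10 counts over all libraries and 33 had at least 100, of which 26 had a product and 7 were open reading frames. A count of 0 in a library allows up to 3 counts, which is 0.313 to 0.827 CPM depending on the library; this limit covers counting error only. The exon 3 piece of nad5 (ATMG00665), 22 bases long and shorter than the 75-base reads, was at 0 throughout.

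Per length, the highest mean levels of the mitochondrial rows alone over 12 libraries were those of rps12 (38.5 TPM, a share of all transcripts corrected for length), atp9 (36.4 TPM), the nad5 piece of exons 4 and 5 (35.3 TPM), atp1 (29.9 TPM), nad7 (29.8 TPM) and the open reading frame ATMG00490 (24.995 TPM). With the chromosome 2 rows added, rps12 stood at 77.03 TPM, atp9 at 72.8 TPM, atp1 at 37.04 TPM, above the nad5 piece, and nad3 at 23.8 TPM in place of 0.0014 TPM. The order of levels therefore depends on how the copies are counted, and the values by group that follow are of the mitochondrial rows alone. The protein of rps12 belongs to the small ribosomal subunit, and atp9 encodes the ring subunit through which protons pass in the ATP synthase. In roots labelled psp1 these 6 stood at 51.04 ± 6.71, 27.6 ± 19.5, 44.4 ± 26.6, 59.3 ± 29.3, 54.8 ± 19.3 and 34.3 ± 31.8 TPM (SD, n = 3), and in WT roots at 29.4 ± 8.79, 47.2 ± 26.1, 70.9 ± 63.3, 27.5 ± 13.6, 30.96 ± 14.2 and 29.5 ± 31.6 TPM. In the aerial part labelled psp1 they stood at 31.3 ± 26.5, 38.9 ± 7.34, 7.87 ± 7.33, 15.7 ± 3.34, 14.7 ± 1.32 and 19.8 ± 15.9 TPM, and in the WT aerial part at 42.4 ± 1.33, 31.96 ± 5.51, 18.1 ± 5.77, 16.99 ± 2.65, 18.6 ± 0.545 and 16.4 ± 2.297 TPM. In order of level, no neighbouring pair of these 6 differed by more than the larger of the pair’s SDs in either root group or in the aerial part labelled psp1. In the WT aerial part rps12 stood above atp9, and atp9 above nad7, by more than that, and the other neighbours did not. These SDs are between libraries, and no test was made of the order. The next open reading frames per length were ATMG01000 (17.96 TPM), ATMG01130 (10.7 TPM), ATMG01040 (8.35 TPM) and ATMG00690 (6.93 TPM).

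Pieces of one gene were counted at different mean levels, which were not tested against each other. Of nad5, the 542 bases of exons 4 and 5 reached 35.3 TPM, against 8.304 TPM for the 1446 bases of exons 1 and 2. Of nad1, the piece of exons 2 and 3 reached 10.7 TPM, that of exon 1 5.903 TPM and that of exons 4 and 5 3.29 TPM. For nad2 the pieces of exons 1 and 2 and of exons 3 to 5 stood at 2.63 and 0.731 TPM. In plants these genes are joined by trans-splicing, in which separately transcribed pieces of one message are spliced together.

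A stretch of mitochondrial DNA inserted into chromosome 2 limits what an ATMG row can be said to measure. At a minimum identity of 95% over 80% of the coding sequence, or at equal length and equal counts throughout, 30 members were assigned a nuclear copy, 13 of them with a product, and all 28 copies lay on chromosome 2 between AT2G07671 and AT2G07777. For 23 members the estimated counts equalled those of a nuclear row in all 12 libraries after rounding to 0.1; for several open reading frames this rests on fewer than 10 counts. Among products these were cob, rps7, rps4, atp8, ccmC, cox3, atp6-1, rps12, rpl5 and atp9. For atp1 the mitochondrial row held 3470 counts and AT2G07698, which contains 1509 bases identical to it, held 1478. For rpl2, a protein of the large ribosomal subunit, the row held 424 counts and AT2G07715 held 156. The match of rpl2 covers 907 bases of a row of 1050, with 3 mismatches. Unedited reads that lie wholly within an identical stretch cannot be told apart between the organelle and chromosome 2, while reads over unshared bases can be. Reads edited at an annotated site would differ from the copy, but the deposited counts do not separate them.

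The nad3 gene was the extreme case. In TAIR10.1 its coding sequence matches AT2G07751 over all 357 bases, but the row deposited for nad3 (ATMG00990) has 360 bases. That row held 0.02 counts over 12 libraries while AT2G07751 held 350. Its copy stood at 2.48, 7.05 and 5.03 normalised CPM in roots labelled psp1, against 3.17, 3.57 and 4.18 in WT roots. In the aerial part labelled psp1 it stood at 6.55, 4.29 and 1.55, against 5.27, 3.79 and 6.28 in WT. The groups overlapped in both organs. Here and below, normalised CPM are CPM with the library total scaled by TMM factors over all 12 libraries.

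**Figure D1:**
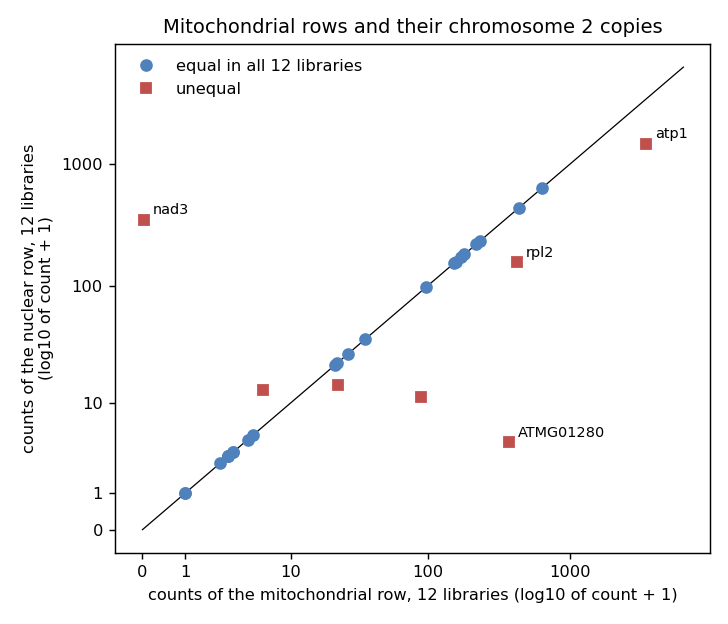
Counts over the 12 libraries of each mitochondrial row (x axis, log10 of the count + 1) and of its chromosome 2 copy (y axis, same scale), with the line of equality. Blue circles are pairs with equal counts in every library and lie on the line; nad3 (0.02 against 350 counts), atp1, rpl2 and ATMG01280 are named among the unequal pairs, drawn as red squares.

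Editing sites were unequally spread over the members. RefSeq annotates 51 sites in the 621 bases of ccmB, 52 in the 1488 bases of nad4, 44 in mttB, which encodes a protein translocation factor, and 36 in nad7, but 6 in the 1524 bases of atp1, 1 in atp6-1 and none in cox1. The share of 31-base words free of a site, the default word length of the authors' counting program, was 12.2% in ccmB, 33.7% in nad4, 42.0% in nad7, 89.0% in atp1 and 100.0% in cox1. In the printed stretches no 31-base word of ccmB, nad4 or nad7 was free of a site, against 28 of 60 words in atp1 and all 60 in cox1. Over 37 members with a product and at least 31 bases, the mean TPM with copies added had a median of 7.70 in the 14 genes with under 50% free words, 5.66 in the 16 genes from 50% to under 75%, and 5.88 in the 7 genes at 75% or more. As a description across these genes, which share libraries and are not replicates, free words and log2 TPM had a Pearson r of -0.14 and a Spearman rho of -0.05. The part of editing in the levels was not tested.

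**Figure D2:**
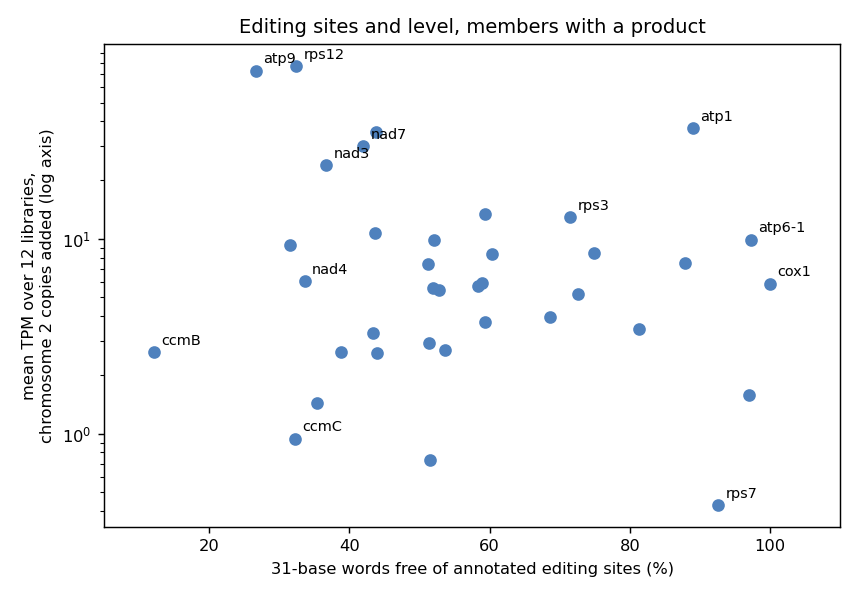
Share of 31-base words free of annotated editing sites (x axis, %) against the mean TPM over 12 libraries with chromosome 2 copies added (y axis, log), 1 point for each of 37 members with a product. Points run from ccmB at 12.2% to cox1 at 100.0%, and high and low levels occur along the whole axis.

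The share of all counts on members was low in every library and uneven among roots. It was 0.0231%, 0.0476% and 0.0546% in roots labelled psp1 (0.0418% ± 0.0165, SD, n = 3), against 0.0221%, 0.0209% and 0.0510% in WT roots (0.0313% ± 0.017). The aerial part labelled psp1 held 0.0158%, 0.0183% and 0.0144% (0.0162% ± 0.002), against 0.0162%, 0.0158% and 0.0194% in WT (0.0171% ± 0.002). Between genotypes the shares overlapped in both organs. Every root library lay above every aerial library of the same genotype, by 1.26 times at the closest among libraries labelled psp1 and by 1.08 times in WT. On the normalised scale, which allows for the wide differences of nuclear genes between organs, root and aerial sums overlapped: 187, 375 and 443 CPM in roots against 182, 211 and 163 CPM in the aerial part labelled psp1, and 193, 179 and 445 CPM in roots against 207, 199 and 241 CPM in the aerial part of WT.

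Plastid-encoded genes, counted by the same poly(A) selection, had shares of 0.0842%, 0.106% and 0.114% in roots labelled psp1, against 0.123%, 0.123% and 0.195% in WT roots. In the aerial part labelled psp1 they had 1.52%, 1.18% and 1.38%, against 1.46%, 1.42% and 1.89% in WT. The WT root library with the highest mitochondrial share also had the highest plastid share. Roots labelled psp1 and the WT aerial part kept the same order in both shares. In the aerial part labelled psp1 they did not: library 2 had the highest mitochondrial share (0.0183%) and the lowest plastid share (1.18%). The part of poly(A) selection in the spread between libraries was not tested. In bulk tissue, less RNA per cell and fewer cells of a kind cannot be told apart.

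**Figure D3:**
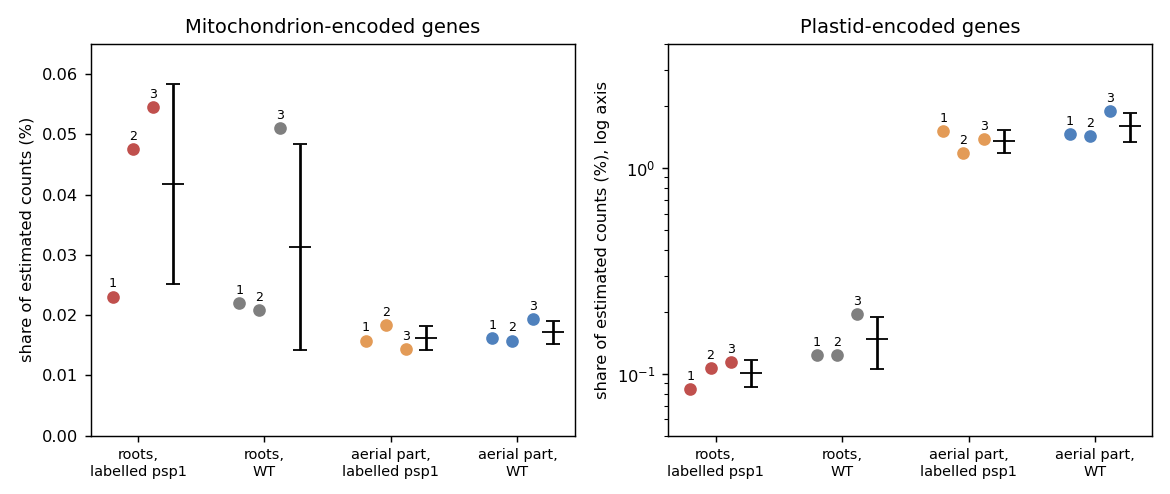
Share of estimated counts on mitochondrion-encoded genes (left, %, linear axis) and plastid-encoded genes (right, %, log axis) in each library, numbered within its group, with the mean and SD of 3 libraries beside the points. Libraries 2 and 3 of the roots labelled psp1 and library 3 of WT roots lie at 0.0476% to 0.0546% on the left, and the other root libraries at 0.0209% to 0.0231%.

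The spread among root libraries ran through nearly all members together. Among the 33 members with at least 100 counts, library 3 was the highest of the WT roots for all 33, while it was the highest for 32.8% of 17993 nuclear genes with as many counts. Their median in that library exceeded the mean of the other WT root libraries by 1.03 on the log2 scale, against -0.01 for nuclear genes and 0.65 for plastid genes. Library 1 was the lowest of the roots labelled psp1 for 28 of 33 members, with a median 1.02 below the other libraries on the log2 scale (-1.02, against 0.00 for nuclear genes and -0.41 for plastid genes). No aerial library led for more than 18 of 33 members. The biological coefficient of variation of the members, as fitted by edgeR, had a median of 37.2% in the comparison of genotypes in roots and 34.5% in the aerial part, against 17.6% and 19.5% for all genes tested. Members and all genes were not matched for count level here, and most members had low counts.

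**Figure D4:**
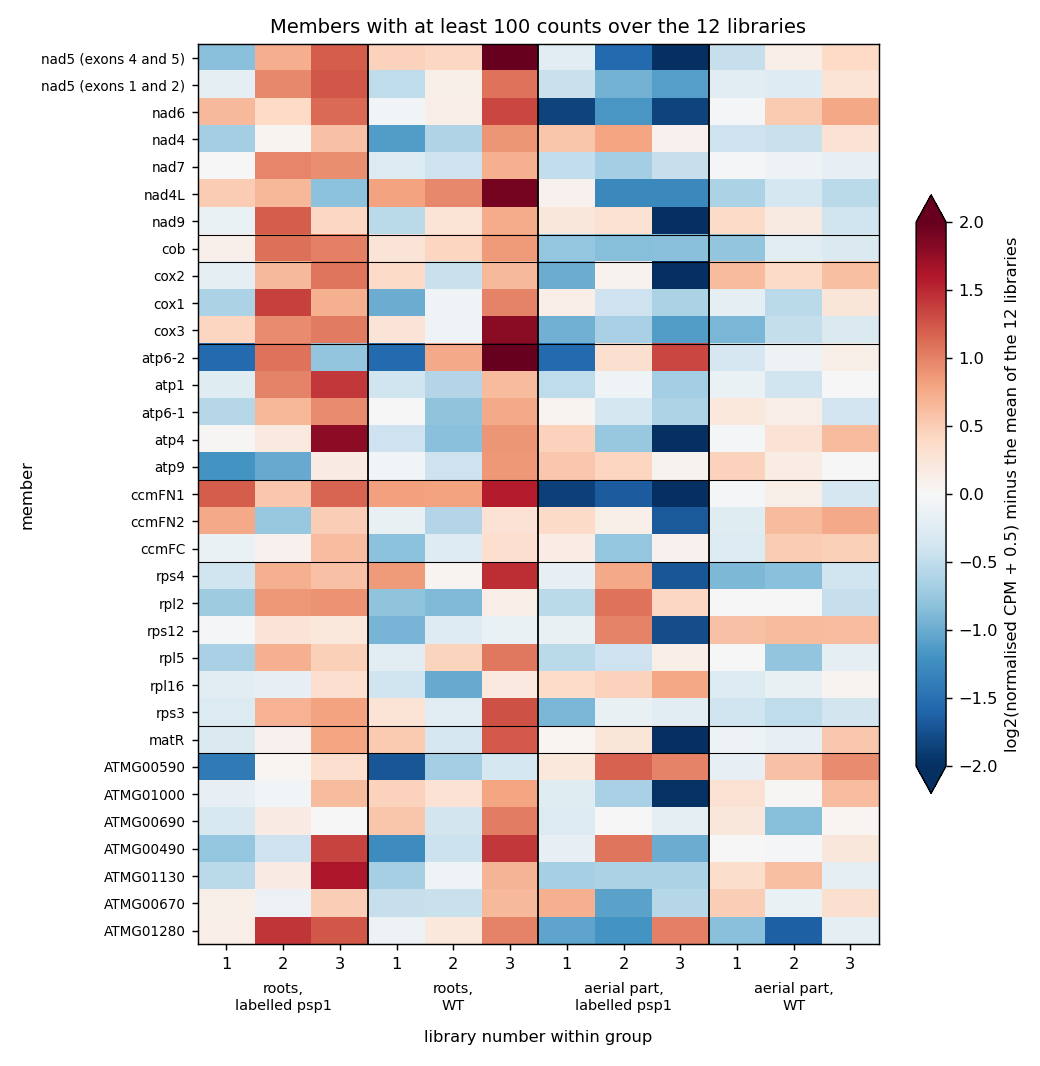
Normalised CPM of the 33 members with at least 100 counts, as log2(CPM + 0.5) minus the member's mean over 12 libraries (colour, red high, blue low); rows are members grouped by complex and columns are libraries. Library 3 of WT roots is the highest WT root library in every row, and libraries 2 and 3 of the roots labelled psp1 are mostly red.

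The make-up of the pool is given as shares of mitochondrial counts. Complex I genes took 28.6% to 36.4% of mitochondrial counts in roots and 22.2% to 30.4% in the aerial part, ATP synthase genes 18.5% to 29.1% and 21.1% to 23.7%, and ribosomal protein genes 14.8% to 20.3% and 16.1% to 27.0%. Cytochrome c oxidase genes took 4.92% to 7.82% in roots and 3.25% to 6.38% in the aerial part, and cytochrome c maturation genes 2.54% to 6.15% and 3.15% to 5.59%. The single complex III gene, cob, which encodes apocytochrome b, took 0.82% to 1.44% in roots and 0.36% to 0.72% in the aerial part, so that its share in every root library lay above that in every aerial library. Open reading frames took 12.2% to 16.0% in roots and 15.2% to 23.5% in the aerial part.

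The first comparison asks whether the psp1 mutation changed mitochondrial transcripts in roots. No member passed at an adjusted p under 0.01 in the edgeR exact test with Benjamini-Hochberg adjustment over all genes, out of 37 members with enough counts to test; the other members were not tested. Over all genes, 17.8% of 17793 tested were called, 8.72% higher and 9.1% lower. Among the 37 members 5 had an unadjusted p under 0.05, and neither the edgeR quasi-likelihood test nor DESeq2 called any. The members' median log2 fold change was 0.17, against 0.01 over all genes, with 22 members above 0 and 15 below.

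In roots atp1 stood at 33.01, 78.4 and 104 normalised CPM in libraries labelled psp1, against 29.5, 25.7 and 60.8 in WT. Its log2 fold change was 0.89 ± 0.63 (SE, n = 3 per group; adjusted p = 0.0564, edgeR exact test). The groups overlapped. Nad7, a subunit of the peripheral arm of complex I, stood at 30.1, 60.1 and 57.9 against 24.8, 22.6 and 49.6, with a log2 fold change of 0.60 ± 0.48 (adjusted p = 0.137, edgeR). For both genes library 1 of the roots labelled psp1 lay below library 3 of WT and above the other WT libraries.

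The smallest adjusted p in roots belonged to the exon 1 piece of nad1, with 1.24, 2.08 and 4.65 normalised CPM in libraries labelled psp1 against 0, 0.376 and 1.45 in WT (log2 fold change 2.03 ± 0.95, adjusted p = 0.0362, edgeR exact test). The nad1 piece of exons 2 and 3 went the other way, with means of 0.884 labelled psp1 against 1.48 in WT. The piece of exons 4 and 5, not tested, had 0.822 against 0.471. Both pieces had overlap. Rpl2 had 2.999, 9.93 and 10.2 against 2.797, 2.63 and 5.79 (1.02 ± 0.65, adjusted p = 0.0949, edgeR). Nad4L, a small membrane subunit of complex I, had 1.24, 1.44 and 0.194 against 1.64, 1.88 and 4.09 (-1.35 ± 0.72, adjusted p = 0.0764, edgeR), and here the groups did not overlap. The nad1 exon 1 piece had 0, 4 and 16 counts in WT roots, and nad4L had 9, 9 and 1 in roots labelled psp1. Each therefore passed the filter on low counts only with the group where it was higher. The median and signs over members tested in roots depend in part on that filter. Without library 3 of WT roots, 3 members were called higher (nad1 exon 1, atp1 and nad7) and the members' median was 0.83. Without library 1 of the roots labelled psp1, 2 were called higher (atp1 and rpl2) and the median was 0.479. Without library 2 or 3 of the roots labelled psp1, none was called and the medians were 0.215 and -0.008. Without library 1 or 2 of WT roots, none was called and the medians were 0.062 and -0.002.

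By class, medians of the log2 fold change in roots were 0.11 over 10 complex I members, 0.34 over 3 cytochrome c oxidase members, 0.38 over 5 ATP synthase members, 0.42 over 3 cytochrome c maturation members, 0.12 over 6 ribosomal protein members and 0.09 over 8 open reading frames. None of these classes held a called member. The lowest of the 37 fold changes was that of atp6-2, a second gene for subunit 6 of the ATP synthase (-1.51 ± 1.74, adjusted p = 0.379, edgeR), which stood at 0, 2.59 and 0.345 normalised CPM in libraries labelled psp1 and 0, 1.98 and 6.46 in WT, with overlap.

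The same question gave no called member among 23 tested in the aerial part. All genes gave 2.43% called of 15928, 1.53% higher and 0.904% lower. Of the 23 members, 5 had an unadjusted p under 0.05, and neither the quasi-likelihood test of edgeR nor DESeq2 called any. The members' median log2 fold change was -0.21 (all genes 0.01), with 9 above 0 and 14 below.

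Rpl16, a protein of the large ribosomal subunit, had the smallest adjusted p, with 6.94, 7.37 and 9.32 normalised CPM in the aerial part labelled psp1 against 4.27, 4.701 and 5.43 in WT (log2 fold change 0.80 ± 0.17, adjusted p = 0.181, edgeR exact test). Cox2, the copper-bearing subunit of cytochrome c oxidase that receives electrons from cytochrome c, had 1.29, 3.25 and 0 against 5.05, 4.18 and 4.904 (-1.47 ± 0.99, adjusted p = 0.2, edgeR). Both genes had groups without overlap. The nad5 piece of exons 4 and 5 had 7.74, 2.76 and 0.932 against 6.41, 10.01 and 12.1 (-1.17 ± 0.79, adjusted p = 0.213, edgeR), with overlap. Nad4, a proton-pumping subunit of complex I, had 12.7, 15.04 and 9.01 against 6.27, 6.07 and 10.5 (0.79 ± 0.32, adjusted p = 0.2, edgeR), with overlap. The open reading frame ATMG01000 had 2.18, 1.53 and 0.311 against 3.42, 2.73 and 4.41 (-1.21 ± 0.60, adjusted p = 0.238, edgeR), without overlap. In the aerial part labelled psp1, cox2 had 6.5, 10.6 and 0 counts, this nad5 piece 39, 9 and 3, and ATMG01000 11, 5 and 1. Each passed the filter on low counts only with the WT libraries, whose mean was higher. The median and signs over members tested in the aerial part depend in part on that filter.

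Among the most abundant members, atp1 had 27.3, 36.9 and 24.1 normalised CPM in the aerial part labelled psp1 against 35.5, 29.4 and 38.8 in WT (-0.14 ± 0.22), and nad7 had 21.2, 18.7 and 21.7 against 29.6, 28.1 and 26.99 (-0.36 ± 0.07, adjusted p = 0.392, edgeR). The nad7 groups did not overlap and the atp1 groups did. Atp9 had 3.87, 3.53 and 2.64 against 3.63, 2.84 and 2.53, and ATMG00490 had 2.58, 6.75 and 1.24 against 2.99, 2.88 and 3.56. Leaving out library 1 of the aerial part labelled psp1 gave 1 called member, lower (the nad5 piece of exons 4 and 5), and leaving out library 2 gave 2, both lower (cox2 and nad6, which was not tested with all 6 libraries).

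The difference of the psp1 effect between roots and the aerial part was tested as an interaction by the edgeR quasi-likelihood test over 12 libraries. None of 40 members tested passed at 0.01, 5 had an unadjusted p under 0.05, and DESeq2 called none; over all genes 1.68% of 18759 were called, 0.816% higher and 0.864% lower. The members' median difference was 0.65 on the log2 scale, against 0.08 over all genes, with 27 above 0. The nearest were ccmFN1, a subunit of the heme lyase for cytochrome c maturation (log2 difference 3.22, adjusted p = 0.0493, edgeR), and nad6, a membrane subunit of complex I (4.37, adjusted p = 0.0514, edgeR). Both rest on aerial libraries labelled psp1 with 2 counts and 1 count in all, so no SE is given and neither was tested in the aerial part. The others with an unadjusted p under 0.05 were nad7, atp1 (1.12 ± 0.67, adjusted p = 0.204) and cox2 (1.91 ± 1.12, adjusted p = 0.204, edgeR).

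Roots were next compared with the aerial part within each genotype. In libraries labelled psp1, 7 of 28 members tested were called, all higher in roots, while 49.7% of all 17344 genes tested were called, 25.2% higher and 24.5% lower. In WT, 10 of 34 were called, 8 higher and 2 lower in roots, while 64.4% of all 18202 genes were called, 33.6% higher and 30.8% lower. The members' median log2 fold change was 0.87 in libraries labelled psp1 (all genes 0.04) and 0.24 in WT (all genes 0.03). Of the 7 genes called in libraries labelled psp1, cob, cox3, ccmFN1 and nad6 had at most 4.21 counts in any of the aerial libraries labelled psp1, so they had enough counts to be tested only through the roots. In WT, cob, cox3, nad4L and rps4 had at most 9.5, 5.5, 3 and 9 counts in any aerial library. They too passed the filter on low counts through the roots. In both genotypes the count of calls, their direction and the median over members tested therefore depend in part on that filter and are given as a description. Without library 3 of WT roots the WT median was -0.32, with 12 of 34 members above 0 in place of 23, and 5 called, 3 higher and 2 lower.

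3 members were called higher in roots in both genotypes: cob, cox3 and ccmFN1. Over all genes 49.7% were called in libraries labelled psp1 and 64.4% in WT. The matching overlap over all genes is not given here, so the 3 are listed as a description. In the aerial part labelled psp1 these 3 members had at most 4.21, 2 and 1 counts in a library. They passed the filter on low counts in that genotype through the roots, as did cob and cox3 in WT. Cob had 1.93, 4.395 and 4.08 normalised CPM in roots against 0.836, 0.767 and 0.777 in the aerial part labelled psp1, and 2.22, 2.58 and 3.63 against 0.822, 1.44 and 1.37 in WT. Its log2 fold changes were 2.23 ± 0.33 (adjusted p = 0.00285) and 1.23 ± 0.29 (adjusted p = 0.00473, edgeR exact tests). Roots and aerial parts did not overlap in either genotype.

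Cox3, a core subunit of cytochrome c oxidase, had 1.86, 2.88 and 3.098 normalised CPM in roots against 0.397, 0.614 and 0.311 in the aerial part labelled psp1, and 1.59, 1.17 and 5.59 against 0.427, 0.758 and 0.933 in WT. The log2 fold changes were 2.48 ± 0.24 (adjusted p = 0.00151) and 1.97 ± 0.70 (adjusted p = 0.00599, edgeR exact tests), again without overlap of the organs. The cob calls were lost in 6 of 12 alternatives in libraries labelled psp1 and in 7 of 13 in WT, and the cox3 calls in 5 of 12 and 5 of 13; both genes lost them without library 3 of the roots in either genotype, and also without each single aerial library, except that cox3 in libraries labelled psp1 kept its call without library 2. Cob and cox3 share equal counts with AT2G07727 and AT2G07687 on chromosome 2, so these values stand for the pair.

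CcmFN1 has no chromosome 2 copy by the criteria used. It had 5.38, 3.204 and 5.23 normalised CPM in roots against 0.198, 0.307 and 0 in the aerial part labelled psp1, and 3.99, 3.94 and 7.09 against 1.99, 2.27 and 1.53 in WT. In libraries labelled psp1 it had 86 counts in roots and 2 in the aerial part, a ratio of 26.6 with a counting interval of 7.13 to 223 (exact, 95%), and the call (adjusted p = 2.70e-07, edgeR) was kept in all 14 alternatives. In WT the log2 fold change was 1.40 ± 0.31 (adjusted p = 3.52e-04, edgeR), called in 13 of 14 alternatives. Aerial and root values did not overlap in either genotype.

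Complex I genes gave 3 calls among 6 tested in libraries labelled psp1 and 2 among 8 in WT, all higher in roots. Over all genes 25.2% and 33.6% were called higher in roots. Nad7 had 30.1, 60.1 and 57.9 in roots against 21.2, 18.7 and 21.7 in the aerial part labelled psp1 (1.21 ± 0.33, adjusted p = 7.69e-05, edgeR), called in all 14 alternatives. In WT it had 24.8, 22.6 and 49.6 against 29.6, 28.1 and 26.99 (0.23 ± 0.36, adjusted p = 0.442, edgeR), where 2 root libraries lay below every aerial one. The genotypes' difference did not pass for this gene (interaction 1.06 ± 0.49, adjusted p = 0.139, edgeR quasi-likelihood test).

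The nad5 piece of exons 1 and 2 had 8.56, 19.7 and 24.01 in roots against 7.14, 4.91 and 4.35 in the aerial part labelled psp1 (1.60 ± 0.47, adjusted p = 6.25e-04, edgeR), and 6.81, 10.7 and 21.5 against 8.405, 8.19 and 11.999 in WT (0.48 ± 0.51, adjusted p = 0.228, edgeR). It was called higher in the roots labelled psp1, and not without library 3 of these roots. The piece of exons 4 and 5 had 4.83, 15.4 and 21.7 in roots against 7.74, 2.76 and 0.932 in the aerial part labelled psp1 (1.79 ± 0.97, adjusted p = 0.0121, edgeR), with overlap and no call. It was called in WT, with 12.7, 12.2 and 52.4 in roots against 6.41, 10.01 and 12.1 in the aerial part (1.48 ± 0.74, adjusted p = 0.00401, edgeR), and this call was lost without library 3 of WT roots and without library 1 or 2 of the WT aerial part.

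Nad6 had 2.33, 1.88 and 3.46 in roots against 0, 0.307 and 0 in the aerial part labelled psp1, where 46.5 and 1 counts give a ratio of 28.7 with a counting interval of 4.91 to 1158 (exact, 95%; adjusted p = 2.49e-05, edgeR). In WT it had 1.24, 1.48 and 4.06 against 1.28, 2.09 and 2.601 (0.26 ± 0.55, adjusted p = 0.705, edgeR), with overlap. Nad4L was not tested in libraries labelled psp1, where it had 1.24, 1.44 and 0.194 in roots and 0.794, 0 and 0 in the aerial part. It was called in WT, with 1.64, 1.88 and 4.09 in roots against 0.285, 0.455 and 0.34 in the aerial part (2.81 ± 0.40, adjusted p = 1.02e-05, edgeR), in all 13 alternatives that tested it. The WT aerial libraries held 2, 3 and 2 counts of nad4L, so it passed the filter on low counts through the roots.

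Atp1 was called in libraries labelled psp1, with 33.01, 78.4 and 104 in roots against 27.3, 36.9 and 24.1 in the aerial part (1.24 ± 0.53, adjusted p = 0.00129, edgeR), although its lowest root library lay below the highest aerial one; the call was lost without library 3 of these roots. In WT it had 29.5, 25.7 and 60.8 against 35.5, 29.4 and 38.8 (0.19 ± 0.41, adjusted p = 0.546, edgeR). Atp9 had 0.811, 0.992 and 2.86 in roots against 3.87, 3.53 and 2.64 in the aerial part labelled psp1, and 2.402, 1.76 and 4.96 against 3.63, 2.84 and 2.53 in WT, with no call in either. The other ATP synthase genes tested, atp4 and atp6-1, were not called.

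Of 5 ribosomal protein genes tested in libraries labelled psp1 none was called, beside 49.7% of all genes. Of 6 tested in WT, 2 were called higher and 1 lower in roots, beside 33.6% and 30.8% of all genes. Rps4 had 1.52, 3.85 and 3.48 in roots against 1.88, 3.99 and 0.311 in the aerial part labelled psp1. In WT it had 4.29, 2.25 and 6.91 against 0.926, 0.986 and 1.53 (2.06 ± 0.50, adjusted p = 8.36e-05, edgeR), called in all 14 alternatives. The WT aerial libraries held 6.5, 6.5 and 9 counts of rps4, so it passed the filter on low counts through the roots. Whether the organ difference of rps4 itself differed between genotypes was tested by the interaction, which did not pass (log2 difference -1.55, adjusted p = 0.367, edgeR quasi-likelihood test).

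Rps3 had 15.7, 31.4 and 33.6 in roots against 9.92, 17.2 and 16.5 in the aerial part labelled psp1 (0.84 ± 0.43, adjusted p = 0.0351, edgeR), and 23.2, 16.2 and 46.9 against 14.4, 13.3 and 14.8 in WT (1.05 ± 0.45, adjusted p = 0.00174, edgeR). The WT call was lost without library 3 of WT roots or library 2 of the WT aerial part. Rps12 had 7.31, 9.05 and 8.71 in roots against 6.75, 15.3 and 1.84 in the aerial part labelled psp1, and 3.69, 6.19 and 6.77 against 11.5, 11.8 and 11.7 in WT, where it was called lower (-1.03 ± 0.27, adjusted p = 3.78e-05, edgeR). That call was lost when libraries were scaled by their totals or thinned to equal depth. For rps4 and rps12 the range of the aerial libraries labelled psp1 enclosed all values of the roots labelled psp1.

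Of the open reading frames none of 6 tested was called in libraries labelled psp1 and 2 of 8 were called in WT. These counts stand beside 49.7% and 64.4% of all genes called. ATMG01280 had 3.999, 10.6 and 9.25 in roots against 1.49, 1.29 and 7.77 in the aerial part labelled psp1, and 3.34, 4.26 and 7.71 against 1.79, 0.828 and 3.07 in WT, where it was called higher (1.47 ± 0.61, adjusted p = 0.00265, edgeR). Its near-identical chromosome 2 copy, AT2G07695, is annotated as similar to cytochrome c oxidase subunit II. ATMG00590 had 0.414, 2.01 and 2.597 in roots against 2.34, 5.06 and 4.35 in the aerial part labelled psp1, and 0.25, 1.03 and 1.41 against 1.67, 3.18 and 4.23 in WT, where it was called lower (-1.65 ± 0.67, adjusted p = 0.0023, edgeR). Its copy AT2G07718, equal in counts, is annotated as a cytochrome b/b6 protein; cob itself was called higher. In WT, ATMG01280 passed the filter on low counts only with the roots, and ATMG00590 only with the aerial part. Each WT call was lost in 5 of 14 alternatives: without library 1 or 2 of the aerial part or library 3 of roots for ATMG01280, and without library 2 or 3 of the aerial part or library 1 of roots for ATMG00590. ATMG00490, the open reading frame highest per length, had 1.52, 2.08 and 8.33 against 2.58, 6.75 and 1.24 in libraries labelled psp1 and 0.94, 2.07 and 8.72 against 2.99, 2.88 and 3.56 in WT.

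Other members with a product passed no test. Cox1, the catalytic core of cytochrome c oxidase, had log2 fold changes of 0.96 ± 0.63 between organs in libraries labelled psp1 (adjusted p = 0.0918) and 0.38 ± 0.64 in WT (adjusted p = 0.458, edgeR). The intron maturase gene matR had 0.59 ± 0.99 (adjusted p = 0.422) and 0.54 ± 0.53 (adjusted p = 0.206, edgeR). Nad9, a peripheral arm subunit of complex I, had 0.89 ± 1.15 (adjusted p = 0.332) and 0.23 ± 0.48 (adjusted p = 0.682, edgeR). Rpl5 of the large ribosomal subunit had 1.04 ± 0.48 in WT (adjusted p = 0.0471, edgeR) and was not tested in libraries labelled psp1. Beside nad3 and the exon 3 piece of nad5, the loci with a product that had too few counts for every comparison of 2 groups were atp8, ccmC, mttB, rps7, the nad1 piece of exons 4 and 5 and the nad2 piece of exons 3 to 5.

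**Figure D5:**
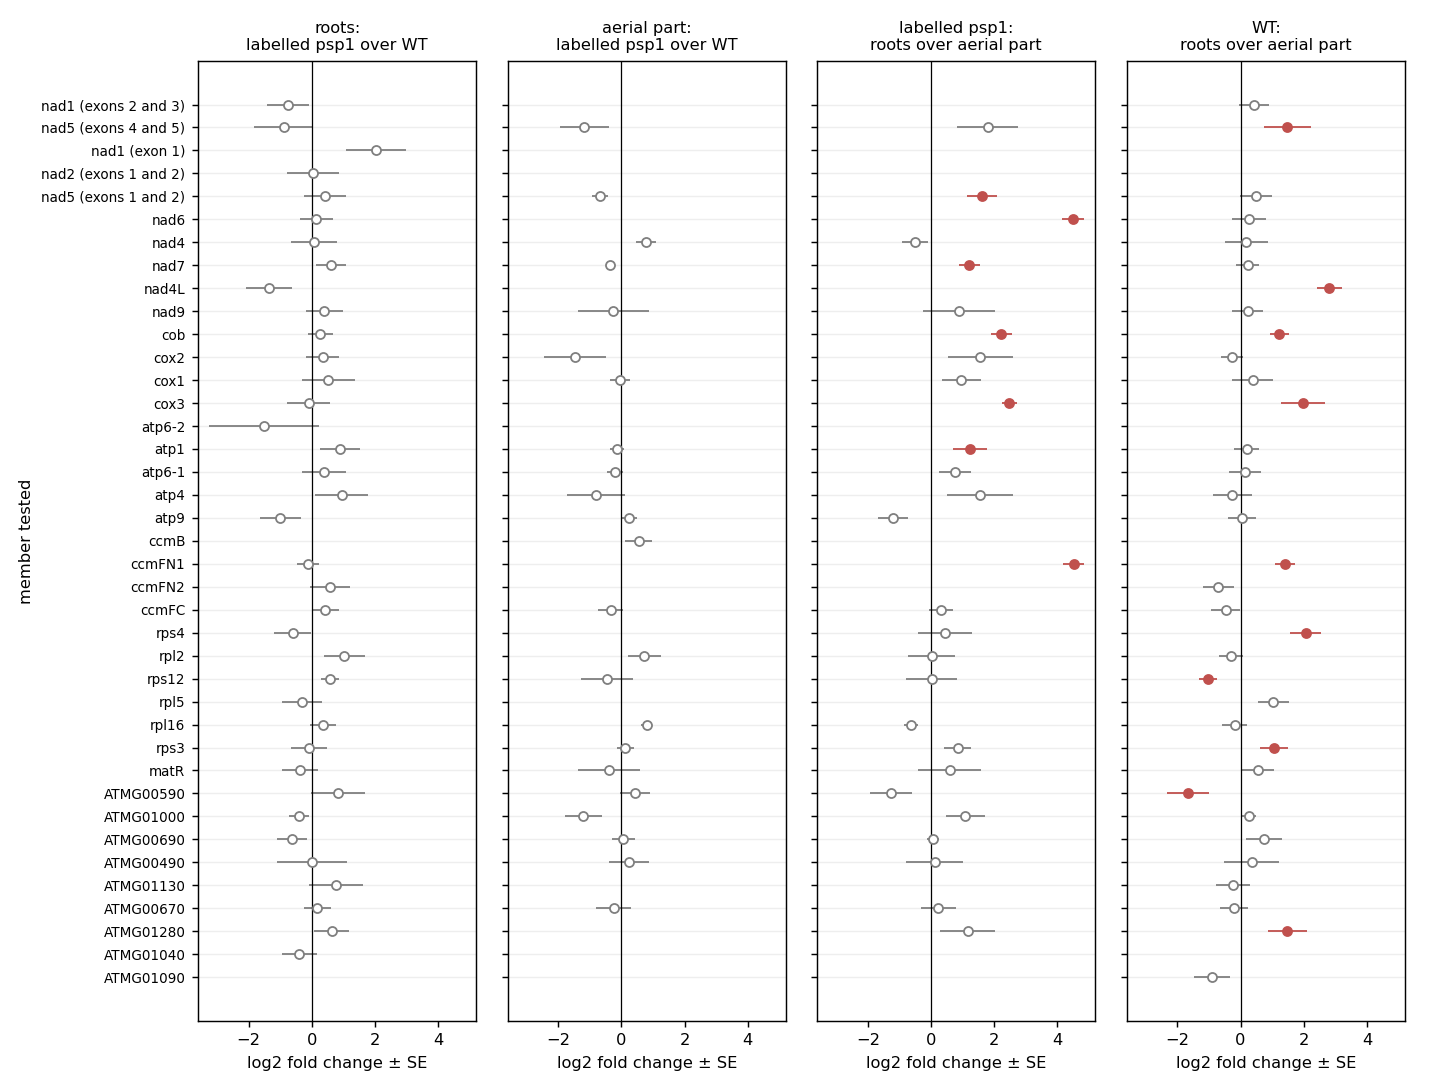
Log2 fold change ± SE (x axis) of each member tested, for roots and aerial part labelled psp1 over WT (left panels) and for roots over aerial part in libraries labelled psp1 and in WT (right panels), n = 3 per group. Filled red points passed at an adjusted p under 0.01 in the edgeR exact test: none in the genotype panels, 7 in libraries labelled psp1 and 10 in WT; a member with no point in a panel had too few counts to be tested.

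Nuclear genes of the same complexes were set beside the members. In roots labelled psp1 over WT, 1 of 13 nuclear complex I genes rose, as did 1 of 10 of complex III with cytochrome c, 1 of 6 of complex IV and 1 of 8 of the ATP synthase, where 1 also fell; none of 3 succinate dehydrogenase genes (complex II) passed. The list medians of the log2 fold change were 0.17, -0.17, 0.20, -0.11 and 0.24 in that order, against 0.01 over all genes. Of all genes tested in roots 17.8% were called, 8.72% higher and 9.1% lower. No gene of these lists passed in the aerial part, where 2.43% of all genes did. The ATP synthase epsilon chain gene AT1G51650 rose in roots labelled psp1 (1.89 ± 0.50, adjusted p = 1.54e-04, edgeR exact test).

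Between organs, of 8 nuclear ATP synthase genes 6 rose and none fell in roots labelled psp1 over their aerial part, and 5 rose and 1 fell in WT, with medians of 0.69 and 0.59. The delta subunit gene ATP5 rose by 1.04 ± 0.41 and 1.20 ± 0.20 on the log2 scale (adjusted p = 6.45e-04 and 1.13e-13, edgeR). Of the complex II genes 1 of 3 and 3 of 3 rose, led by SDH1-1, the flavoprotein of succinate dehydrogenase (1.87 ± 0.10 labelled psp1, 1.60 ± 0.08 in WT). Of complex III with cytochrome c, 5 of 10 rose in libraries labelled psp1, and 4 rose and 1 fell in WT. Nuclear complex I genes gave 2 rises of 13 in libraries labelled psp1, and 3 rises with 3 falls in WT; complex IV gave 1 rise of 6, and 2 rises with 1 fall. These counts stand beside 49.7% and 64.4% of all genes called.

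Nuclear genes for mitochondrial transcription and RNA processing were set beside them too. In roots labelled psp1 2 of 17 rose, the RNA helicases PMH2 (0.82 ± 0.11, adjusted p = 2.12e-06) and PMH1 (0.49 ± 0.13, adjusted p = 0.00596, edgeR exact tests), and 1 fell, the exoribonuclease gene AT5G02250 (-0.53 ± 0.15, adjusted p = 0.00956, edgeR), beside 17.8% of all genes called in roots. None of 15 passed in the aerial part. Between organs AT5G02250 fell in roots in libraries labelled psp1 (-1.72 ± 0.17) and in WT (-1.65 ± 0.15), while AT5G14580, the mitochondrial polynucleotide phosphorylase that degrades polyadenylated RNA, rose in WT roots (0.94 ± 0.15, adjusted p = 4.82e-07, edgeR). In that list 1 rose and 1 fell of 16 in libraries labelled psp1, and 2 rose and 4 fell of 17 in WT, beside 49.7% and 64.4% of all genes called.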

How the data were processed

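Poly(A)-enriched RNA from 12 plant samples was sequenced as single 75-base SOLiD reads, per the labels' protocols. Kallisto 0.43.0 (fragment length 200, SD 30) placed the reads on TAIR10 transcripts, per the labels, and the authors deposited an estimated count and a TPM value for each locus and library. Positions and editing sites come from RefSeq TAIR10.1, which is a later release than the TAIR10 set; of 38 members with a product, 30 had the RefSeq coding length, and the rest (nad1 exons 2 and 3, nad1 exon 1, nad2 exons 1 and 2, nad3, mttB, ccmFC, atp9 and matR) did not. Symbols of members follow their locus and this length.

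Estimated counts were rounded to whole numbers, filtered by filterByExpr and scaled by TMM factors in edgeR 4.0.16 (R 4.3.3). Genotypes within an organ, and organs within a genotype, were compared by the edgeR exact test, in the classic mode that the labels name, over all genes at an adjusted p under 0.01. The interaction used the edgeR quasi-likelihood test. SEs come from log2 CPM with a prior count of 2, which narrows the spread of low counts. TPM values served for levels per length only. Alternatives were the quasi-likelihood test, DESeq2 1.42.0, library totals, scaling by nuclear genes, no filter, added copies, equal depth, a replicate block and each library left out. The tests were run on simulated data in which only genes above 5 CPM were given changes. Most members lie below that level, so the run does not show how often a change is found in them. Replicates are independent biological samples, per the labels. Members with a product, open reading frames called in any test and the 5 with the highest TPM could be named, and up to 3 called genes per nuclear list. The members and lists were chosen with earlier results of these data known. Organ and genotype comparisons share libraries.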

Additional observations from a re-analysis of the deposited data

Results flagged for a closer look

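AT2G07751, the chromosome 2 copy of nad3, lies outside the mitochondrial rows but held 350 counts over the 12 libraries, while the nad3 row held 0.02. It was singled out because signal for a mitochondrial gene sequence appeared in a row that the comparisons do not use. The mean normalised CPM of the copy was 4.86 ± 2.29 in roots labelled psp1, 3.64 ± 0.51 in WT roots, 4.13 ± 2.501 in the aerial part labelled psp1 and 5.11 ± 1.25 in the WT aerial part (SD, n = 3 each). The deposited counts do not show which of these reads came from the organelle gene and which from the copy. Unedited reads of both are identical, while reads edited at an annotated site would differ. No group has enough libraries for a check of single outlying samples.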

How the results depend on the processing

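No called member changed direction in any alternative, and 390 of the values for named members kept their side of the threshold, while 47 lost it and 28 gained it. In roots labelled psp1 over WT the number of members called was 0 with all libraries and 0 to 3 with 1 library left out. It was 2 without library 1 of the roots labelled psp1 and 3 without library 3 of WT roots. In the aerial part it was 0, and 0 to 2 with 1 library left out (1 without library 1 and 2 without library 2 of those labelled psp1). The interaction gave 0 in every alternative. For roots over aerial part in libraries labelled psp1 the count of 7 became 11 with library totals, 3 with the replicate block and 4 to 11 with 1 library left out (11 without library 1 of those roots, and without library 3 of them 3 higher and 1, atp9, lower). In WT the count of 10 became 5 in the quasi-likelihood test, 5 at equal depth and 5 to 12 with 1 library left out (6 without library 1 and 5 without library 2 of the aerial part, 5 without library 3 of roots). Scaling by library totals gave 13 higher and 0 lower in WT, against 8 and 2; it moved the median of all genes to 0.60 between organs in libraries labelled psp1, 0.54 in WT and 0.12 between genotypes in roots. The sign of the fold change held in all alternatives for 22 of 37 members in roots, 15 of 23 in the aerial part, 21 of 28 between organs in libraries labelled psp1 and 16 of 34 in WT. Over all genes, calls in the aerial part fell to 31 in the quasi-likelihood test, 21 with the block and 112 to 140 without 1 WT library, against 387. In roots they were 1837 with the block, against 3172. Summed TPM gave mitochondrial shares of 0.0665% and 0.0547% in roots labelled psp1 and WT roots, and 0.0286% and 0.0322% in the aerial parts; adding nuclear copies gave 0.0196% and 0.0213% in the aerial parts. Between genotypes, deviations of same-numbered libraries had correlations of -0.074 to 0.051, on both sides of 0. Between organs they were 0.021 to 0.15, all above the means with other numbers (-0.081 to -0.006). These values are small and do not settle whether the numbers pair roots with aerial parts. The main tests treat the libraries as unpaired. The causes of these shifts were not tested. Depth limits the members: of 122, 37 could be tested in roots and 23 in the aerial part.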
